A study of Mus musculus with 11 samples.

Results

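Protein disulfide isomerases of the endoplasmic reticulum (ER) form, break and rearrange the disulfide bonds of secreted and membrane proteins. Expression of 10 genes that encode such enzymes or proteins bound to them was examined in the mouse cochlea: *P4hb*, *Pdia3*, *Pdia4*, *Pdia5*, *Pdia6*, *Txndc5*, *Txndc11*, *Erp44*, *Erp29* and *Creld2*. These members were chosen by gene symbol, and all 10 were found among 18667 genes listed. RNA-Seq libraries came from whole cochleae of 2-month-old mice on the C57BL/6J background, 5 *Atf6*+/+ and 6 *Atf6*-/-, with 1 library per cochlea. The *Atf6* gene of the *Atf6*-/- mice is interrupted by an early stop codon in exon 4, the controls were *Atf6*+/+ littermates, and both sexes were used. In both genotypes the strain carries a *Cdh23* allele linked to age-related hearing loss. Values are fragments counted per transcript length and per library size (FPKM), a level that can be compared between genes. The counting error of single values is not given, because read counts were not analysed.

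Disulfide bonds are made in the ER by a thioredoxin-like active site that accepts electrons from the client protein and passes them to oxidases such as ERO1. The same proteins also act as isomerases, which shuffle wrong bonds, and some of them serve as subunits of other enzymes or as escorts between the ER and the Golgi. The cochlea makes disulfide-bonded extracellular proteins, among them cochlin, the tectorins and fibrillar collagens. ATF6 is a transmembrane ER protein that is cleaved under ER stress, after which its cytosolic part enters the nucleus and acts as a transcription factor for ER chaperone genes.

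*Atf6* (NCBI gene 226641), the targeted gene, was at 10.4, 9.99, 10.6, 8.39 and 8.25 FPKM in *Atf6*+/+ replicates 1 to 5. In the *Atf6*-/- libraries it ranged from 3.83 to 4.59 FPKM with a median of 4.23. The genotypes did not overlap, and the log2 fold change was -1.13 (95% interval -1.32 to -0.95, limma adjusted p = 5.17e-05). *Atf6* RNA was thus still detected in every *Atf6*-/- library.

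Several libraries stood apart in the RNA of other tissues. *Atf6*+/+ replicate 5 had 46284 FPKM of adult globin RNA, 8.60% of its summed FPKM, against 0.597% to 3.29% in the other libraries. Osteoblast RNA was also highest in this library, with 2105 FPKM summed over 10 marker genes. *Atf6*+/+ replicate 3 had the most neutrophil RNA, and *Atf6*-/- replicate 3 had 38.4 FPKM summed over 6 skeletal muscle genes, where the other libraries had at most 5.41. Among the members, *Atf6*+/+ replicate 5 was the highest library of its genotype for 6 of 10 genes and *Atf6*-/- replicate 3 for 7 of 10.

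With limma fitted over 16169 genes that averaged at least 0.1 FPKM, 0 of 10 members had an adjusted p under 0.05, where 0.0680% of all genes did. By an unadjusted rule (limma p of at most 0.05 and a log2 fold change beyond 0.05 in size), 1 member, *P4hb*, was higher in *Atf6*-/- cochleae, against 4.48% of all genes, and 0 were lower, against 5.37%. The values of the genotypes overlapped for all 10 members, and did not overlap for 1.25% of all genes. The median log2 fold change of the members was 0.083, against -0.013 for all genes tested. Positive log2 fold changes were found for 8 of 10 members and for 45.3% of all genes; *Pdia3* and *Pdia6* were negative, the latter turning positive after rescaling to a common transcript sum (TPM) and after globin-free scaling. P-values here set the genotype difference against the spread between these libraries. Whether some cochleae came from the same mouse is not stated in the paper.

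**Figure D1:**
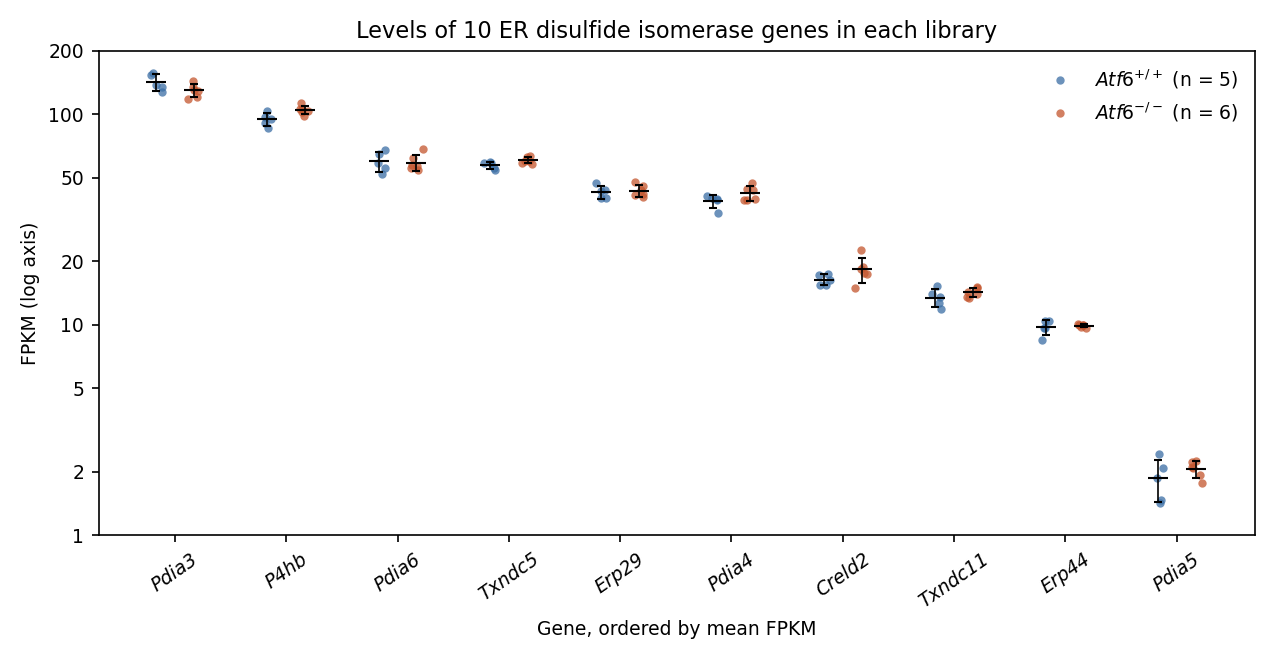
FPKM on a log axis of each of the 10 genes in every library (points), 5 *Atf6*+/+ in blue and 6 *Atf6*-/- in orange, with the mean (dash) and SD (bars) of each genotype. Mean levels run from 135 FPKM for *Pdia3* to 1.97 FPKM for *Pdia5*, and the points of the genotypes overlap for every gene.

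The members differed far more from each other than between genotypes. *Pdia3* was the most abundant, at a mean of 135 FPKM over the 11 libraries, and only 3.25% of the genes tested had a higher mean. *P4hb* followed at 100.2 FPKM, below *Pdia3* in every library. *Pdia6* (59.3 FPKM) and *Txndc5* (59.0 FPKM) could not be ordered, since *Pdia6* was the higher of the pair in 4 of 11 libraries. *Erp29* (43.1 FPKM) and *Pdia4* (40.6 FPKM) also had overlapping ranges, with *Erp29* higher in 8 of 11 libraries. Lower levels were found for *Creld2* (17.4 FPKM), *Txndc11* (13.9 FPKM) and *Erp44* (9.80 FPKM), and *Creld2* exceeded *Txndc11* in 10 of 11 libraries. *Pdia5* was the least abundant member at 1.97 FPKM, a level exceeded by 77.4% of the genes tested. The median within-genotype SD of the members was 0.108 on the log2 scale, against 0.136 over all genes averaging 1 FPKM or more. *Txndc5* varied least (SD 0.054), and 2.26% of those genes had a smaller SD. The genes compared were not matched to the members by level.

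*P4hb* (NCBI gene 18453) encodes the archetypal protein disulfide isomerase, which is also the β subunit of collagen prolyl 4-hydroxylase and a subunit of the microsomal triglyceride transfer protein. It was at 86.3, 91.0, 95.1, 96.7 and 104 FPKM in *Atf6*+/+ replicates 1 to 5. In the *Atf6*-/- libraries it ranged from 98.3 to 113 FPKM with a median of 104. All *Atf6*-/- values thus exceeded 4 of the 5 *Atf6*+/+ values, and 3 of 6 exceeded the highest, that of *Atf6*+/+ replicate 5. The mean was 94.6 ± 6.63 FPKM in *Atf6*+/+ (SD, n = 5) and 105 ± 5.05 FPKM in *Atf6*-/- cochleae (SD, n = 6; exact two-sided permutation test, p = 0.0195). Its log2 fold change was 0.15 (95% interval 0.03 to 0.26, limma adjusted p = 0.430), so it did not pass the adjustment over all genes. The unadjusted limma p was 0.0159. It was 0.00698 without *Atf6*+/+ replicate 5 and *Atf6*-/- replicate 3, a pair chosen after seeing the data, and lay between 0.00380 and 0.0492 in the 11 fits that left out 1 library. With a score of bone marrow genes in the model the log2 fold change was 0.16 and the unadjusted limma p 0.0570, which ended the call. The catalytic subunits that pair with the *P4hb* product in collagen hydroxylation, *P4ha1*, *P4ha2* and *P4ha3*, had log2 fold changes of -0.002, -0.046 and -0.096, and none of them was called, though *P4ha3* met the unadjusted rule as lower without *Atf6*+/+ replicate 5. *Mttp*, the large subunit of the triglyceride transfer protein, had a log2 fold change of 0.16 (95% interval -0.18 to 0.50).

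*Pdia3* (NCBI gene 14827) encodes ERp57, which acts on glycoproteins held by calnexin and calreticulin and is part of the peptide loading complex of MHC class I. Its level was 137, 135, 153, 127 and 157 FPKM in *Atf6*+/+ replicates 1 to 5. The *Atf6*-/- libraries spanned 119 to 144 FPKM around a median of 130 FPKM. *Atf6*+/+ replicates 1, 2 and 4 lay within the *Atf6*-/- range, and 2 of 6 *Atf6*-/- libraries were below the lowest *Atf6*+/+ value. The means were 142 ± 12.6 FPKM (SD, n = 5) and 130 ± 9.37 FPKM (SD, n = 6; exact two-sided permutation test, p = 0.110). The log2 fold change of -0.13 (95% interval -0.27 to 0.02, limma adjusted p = 0.540) kept its sign under every alternative. It met the unadjusted rule without *Atf6*+/+ replicate 4 (-0.17) and without *Atf6*-/- replicate 3 (-0.16). It was smaller in size after rescaling to TPM (-0.071) and without *Atf6*+/+ replicate 5 (-0.090). Of its partners, calreticulin (*Calr*) was at 301 and 330 FPKM in *Atf6*+/+ and *Atf6*-/- cochleae and calnexin (*Canx*) at 79.6 and 79.4 FPKM. Tapasin (*Tapbp*), which holds ERp57 in the loading complex, had a log2 fold change of -0.062.

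*Pdia4* (NCBI gene 12304) and *Pdia6* (NCBI gene 71853) encode ERp72 and P5, isomerases found in complexes with the chaperone BiP. *Pdia4* was at 40.8, 39.0, 39.6, 33.9 and 40.0 FPKM in the *Atf6*+/+ replicates and from 39.1 to 47.0 FPKM, with a median of 41.7, in the *Atf6*-/- libraries. *Atf6*+/+ replicate 4 was the low library, and 3 of 6 *Atf6*-/- libraries exceeded every *Atf6*+/+ value. The log2 fold change was 0.12 (95% interval -0.01 to 0.26, limma adjusted p = 0.529; exact two-sided permutation test, p = 0.108), or 0.078 without *Atf6*+/+ replicate 4 and 0.067 with a score of bone marrow genes in the model. *Pdia6* was at 58.8, 55.5, 67.6, 51.9 and 64.8 FPKM in the *Atf6*+/+ replicates and from 54.0 to 68.3 FPKM, with a median of 57.0, in the *Atf6*-/- libraries. Its ranges nearly coincided, and the log2 fold change was -0.017 (95% interval -0.19 to 0.15, limma adjusted p = 0.957), which turned to 0.040 after rescaling to TPM. BiP itself (*Hspa5*) averaged 132 and 128 FPKM. *Hsp90b1*, which encodes the ER chaperone GRP94, averaged 174 ± 21.7 FPKM in *Atf6*+/+ (SD, n = 5) and 151 ± 13.6 FPKM in *Atf6*-/- cochleae (SD, n = 6; exact two-sided permutation test, p = 0.0693). The log2 fold change of *Hsp90b1* was -0.20 (limma adjusted p = 0.491), and its unadjusted limma p, 0.0399, stayed at or under 0.05 in 5 of 11 fits that left out 1 library.

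*Txndc5* (NCBI gene 105245) encodes ERp46, an isomerase with several thioredoxin-like domains that introduces disulfides rapidly. It was at 55.5, 58.8, 54.1, 58.7 and 59.1 FPKM in the *Atf6*+/+ replicates and from 58.2 to 63.6 FPKM, with a median of 59.9, in the *Atf6*-/- libraries. The difference was small but so was the spread: 4 of 6 *Atf6*-/- libraries exceeded every *Atf6*+/+ value. The mean was 57.2 ± 2.31 FPKM in *Atf6*+/+ (SD, n = 5) and 60.5 ± 2.13 FPKM in *Atf6*-/- cochleae (SD, n = 6; exact two-sided permutation test, p = 0.0433). The limma fit, which draws the spread of each gene towards that of genes at a like level, gave an estimate of 0.079 on the log2 scale (95% interval -0.01 to 0.17, limma adjusted p = 0.528). A model that also held a score of bone marrow genes gave 0.021. *Txndc11* (NCBI gene 106200), a membrane-bound thioredoxin-like protein that binds the dual oxidases, ranged from 11.8 to 15.2 FPKM in *Atf6*+/+ and from 13.4 to 15.2 FPKM in *Atf6*-/- libraries. Its log2 fold change was 0.087 (limma adjusted p = 0.650), and lay between 0.042 without *Atf6*+/+ replicate 1 and 0.13 without *Atf6*+/+ replicate 4 when 1 library was left out, the latter being the only such fit to meet the unadjusted rule. *Pdia5* (NCBI gene 72599) encodes PDIR, which is known to act on the disulfides of ATF6 during its activation. It ranged from 1.43 to 2.44 FPKM in *Atf6*+/+ and from 1.77 to 2.26 FPKM in *Atf6*-/- libraries. Its log2 fold change of 0.16 had the widest interval of the members, -0.14 to 0.47 (95%, limma adjusted p = 0.694), and lay between 0.082 (without *Atf6*+/+ replicate 2) and 0.26 (without *Atf6*+/+ replicate 5) when 1 library was left out. It was 0.31 with bone marrow genes scored in the model and 0.28 with an osteoblast score, chosen after seeing the data, where it met the unadjusted rule.

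*Erp44* (NCBI gene 76299) and *Erp29* (NCBI gene 67397) encode escorts. ERp44 cycles between the ER and the Golgi and retrieves ERO1 and unassembled immunoglobulin subunits through mixed disulfides, whereas ERp29 lacks the paired cysteines of the active site and acts as a chaperone. *Erp44* averaged 9.70 ± 0.803 FPKM in *Atf6*+/+ (SD, n = 5) and 9.89 ± 0.139 FPKM in *Atf6*-/- cochleae (SD, n = 6), where it varied little. Its log2 fold change was 0.032 (95% interval -0.09 to 0.16, limma adjusted p = 0.874). *Erp29* spanned 39.8 to 47.3 FPKM and 40.5 to 47.8 FPKM, at 0.020 on the log2 scale (95% interval -0.11 to 0.15, limma adjusted p = 0.926). Intervals of this width leave room for differences of about the size found for *P4hb*. Both signs turned negative without 1 of the libraries, *Erp44* without *Atf6*+/+ replicate 4 (-0.016) and *Erp29* without *Atf6*+/+ replicate 1 (-0.005), *Atf6*+/+ replicate 2 (-0.0019) or *Atf6*-/- replicate 4 (-0.0082).

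*Creld2* (NCBI gene 76737) encodes a secreted and ER-resident protein with EGF-like repeats that binds isomerases and is a known ER stress gene. It was at 15.5, 15.4, 17.5, 16.4 and 17.2 FPKM in the *Atf6*+/+ replicates and from 14.9 to 22.6 FPKM, with a median of 18.1, in the *Atf6*-/- libraries. The *Atf6*-/- libraries held both the highest and the lowest value: replicate 3 was at the top and replicate 5 at the bottom, below every *Atf6*+/+ library. The log2 fold change was 0.15 (95% interval -0.04 to 0.34, limma adjusted p = 0.567; exact two-sided permutation test, p = 0.141). It fell to 0.088 without *Atf6*-/- replicate 3. Without *Atf6*-/- replicate 5 it was 0.21 and met the unadjusted rule.

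**Figure D2:**
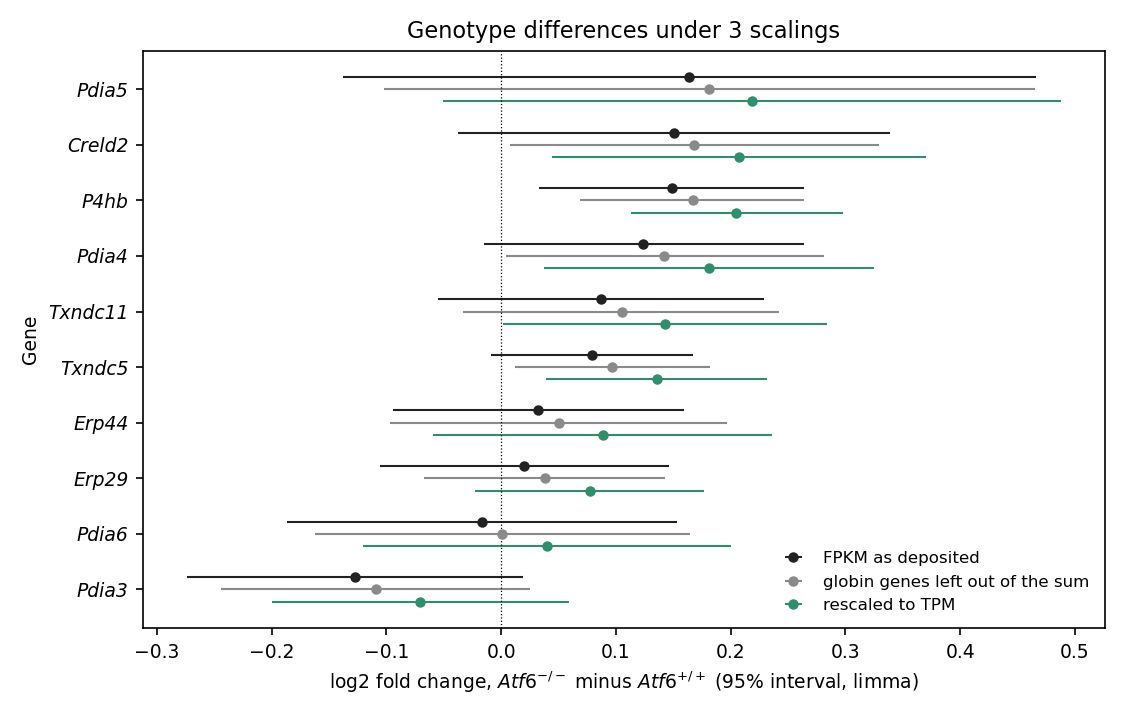
Log2 fold change, *Atf6*-/- minus *Atf6*+/+ (horizontal axis), of each of the 10 genes with its 95% limma interval, for FPKM as deposited (black), FPKM with the globin genes left out of each library's sum (grey) and TPM (green). Each point shifts to the right under the other scalings, *Pdia6* crosses 0 and *Pdia3* stays negative.

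The count of called members depended on how the libraries were scaled. Rescaling each library to TPM gives the libraries a common sum, and under it 5 members were higher by the unadjusted rule (*P4hb*, *Pdia4*, *Txndc5*, *Txndc11* and *Creld2*), against 8.60% of all genes. The same rescaling moved the split of all calls from 724 higher and 868 lower to 1391 higher and 438 lower, and the median over all genes to 0.042. Leaving the 4 globin genes out of the sum, a scaling chosen after seeing the data, gave 4 members higher (*P4hb*, *Pdia4*, *Txndc5* and *Creld2*), against 4.95% of all genes. Median-of-ratios scaling gave 3 (*P4hb*, *Pdia4* and *Txndc5*), against 5.36% of all genes. The smallest adjusted limma p of a member was 0.137 under TPM, so 0 passed the adjustment, against 0.0804% of all genes. With globin-free scaling it was 0.346, and again 0 passed, against 0.0618%.

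Shares within the group of genes do not depend on the scaling between libraries. *Pdia3* made up 30.0%, 29.5%, 30.8%, 27.9% and 30.4% of the summed FPKM of the 10 genes in *Atf6*+/+ replicates 1 to 5. In the *Atf6*-/- libraries its share was between 25.8% and 27.6%. The genotypes did not overlap for this share, which was the case for 1 of the 10 genes, whereas the FPKM values of *Pdia3* did overlap. Such shares are defined within the 10 genes only, so no value over all genes stands beside this count. *P4hb* made up 18.9% to 21.3% in *Atf6*+/+ and 21.0% to 22.5% in *Atf6*-/- libraries, with *Atf6*+/+ replicate 4 at the upper end of its genotype. The mean share of *Pdia3* was 29.7% in *Atf6*+/+ and 26.8% in *Atf6*-/- cochleae, and that of *P4hb* 19.9% and 21.7%. Summed over the 10 genes, the level was 476 ± 28.1 FPKM in *Atf6*+/+ (SD, n = 5) and 484 ± 27.4 FPKM in *Atf6*-/- cochleae (SD, n = 6). Unlike the shares, this sum depends on the scaling: after rescaling to TPM it was 954 ± 49.8 in *Atf6*+/+ (SD, n = 5) and 1008 ± 30.6 in *Atf6*-/- cochleae (SD, n = 6). These shares and sums are descriptions and were not tested.

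**Figure D3:**
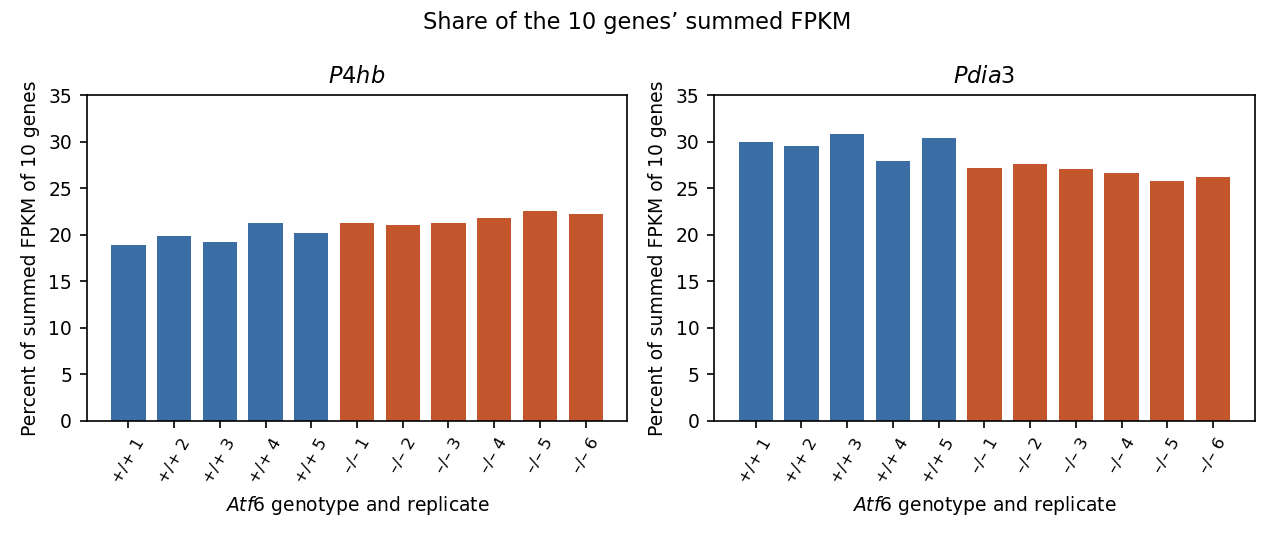
Share of the summed FPKM of the 10 genes, in percent, taken by *P4hb* (left) and *Pdia3* (right) in each library, *Atf6*+/+ replicates 1 to 5 in blue and *Atf6*-/- replicates 1 to 6 in orange. *Pdia3* took at least 27.9% in every *Atf6*+/+ and at most 27.6% in every *Atf6*-/- library.

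Other genes of disulfide formation were examined beside the 5.37% of all genes that were lower. Among 12 tested genes of the wider isomerase family, 0 were higher and 1 was lower by the unadjusted rule, with a median log2 fold change of -0.027. The lower gene was *Tmx2*, a membrane-anchored thioredoxin-like protein, with means of 139 FPKM (*Atf6*+/+) and 128 FPKM (*Atf6*-/-; limma adjusted p = 0.494). Its unadjusted p stayed at or under 0.05 in 4 of 11 fits that left out 1 library. The next most abundant were *Creld1*, at 39.1 and 35.7 FPKM, and *Txndc12*, at 32.6 and 31.4 FPKM. *Creld1* was called lower in 3 of 11 fits that left out 1 library, those without *Atf6*+/+ replicate 1, *Atf6*+/+ replicate 2 or *Atf6*-/- replicate 3, and *Tmx3* in the fit without *Atf6*+/+ replicate 4. In the list for thiol oxidation, 0 of 11 genes were called in either direction, and 1 was lower without *Atf6*+/+ replicate 2 (*Prdx4*), without *Atf6*+/+ replicate 4 (*Selenof*) and with the bone marrow score (*Selenof*). The ER oxidases *Ero1a* and *Ero1b* had log2 fold changes of 0.001 and -0.034, and the abundant selenoproteins *Selenom* and *Selenof* had means of 150.3 and 129 FPKM in *Atf6*+/+ and 141 and 122 FPKM in *Atf6*-/- cochleae. *Vkorc1*, the vitamin K epoxide reductase that can pass oxidizing equivalents to isomerases, was at 63.2 and 62.5 FPKM. Of 14 partners of the isomerases, 0 were higher and 1, *Hsp90b1*, was lower. The calls of *Tmx2* and *Hsp90b1* were lost after rescaling to TPM, where their log2 fold changes were -0.061 and -0.14, and with the bone marrow score, where they were -0.10 and -0.19. Both were also lost with globin-free scaling and with a replicate block. In addition, the call of *Tmx2* was lost with median-of-ratios scaling and that of *Hsp90b1* with the osteoblast score. Among the 14 partners TPM gave 2 higher, *Calr* and *Uggt1*, and 0 lower, against 8.60% and 2.71% of all genes. The same 2 were the partners called without *Atf6*+/+ replicate 3, where 3.24% of all genes were higher. Median-of-ratios scaling gave *Uggt1* higher and *Hsp90b1* lower, against 5.36% and 4.74%. Of 7 regulators of the unfolded protein response, *Atf6* was lower and *Atf6b* and *Atf4* were higher, where 4.48% of all genes were higher. *Atf6b*, the paralogue of *Atf6*, averaged 33.3 and 36.3 FPKM in *Atf6*+/+ and *Atf6*-/- cochleae, and every *Atf6*-/- library exceeded every *Atf6*+/+ library. By the exact two-sided permutation test p was 0.00216, the smallest these groups can give, and the limma adjusted p was 0.391. Among all genes tested, 1.25% had genotypes that did not overlap, as higher or lower. *Atf4*, the effector of the PERK arm, averaged 123 and 140 FPKM (limma adjusted p = 0.495), and *Xbp1*, the effector of the IRE1 arm, 62.0 and 65.3 FPKM. The unadjusted p of *Atf4* stayed at or under 0.05 in 3 of 11 fits that left out 1 library, and that of *Atf6b* in 11 of 11. Both were above it (0.0764 and 0.0571) once the bone marrow score was a covariate, with log2 fold changes of 0.22 for *Atf4* and 0.11 for *Atf6b*, against 0.19 and 0.12 without it. *Ddit3*, which lies downstream of ATF4, averaged 27.4 and 23.6 FPKM, with a log2 fold change of -0.22 (95% interval -0.44 to 0.00, limma adjusted p = 0.505). It was not called, but its unadjusted p was at or under 0.05 in 5 of 11 fits that left out 1 library. With globin-free scaling *Ddit3* was called lower, and with TPM, at -0.16, it was not.

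The profile of *Pdia4* over the 11 libraries was compared with those of 13601 other genes averaging 1 FPKM or more, by the mean absolute difference of centred log2 values. The most alike were *Polr1b* (0.042), *Bms1* (0.042) and *Gpkow* (0.047), and the nearest member was *Erp44* (0.074). For *P4hb*, they were *Iah1* (0.041), *Snd1* (0.041) and *Ddost* (0.043), and the nearest member was *Txndc11* (0.059). Of these 6 genes, *Snd1* was called higher by the unadjusted rule, at 0.17 on the log2 scale (limma adjusted p = 0.447).

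Promoters were searched because ATF6 binds a known element, the ER stress response element (ERSE), and the sequences that matched are shown. RefSeq windows from 250 bases before to 50 after the start were found for 9 of 10 members, in the build GRCm38.p6, whereas the reads were aligned to GRCm39. On both strands, the ERSE, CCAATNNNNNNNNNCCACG, was found in 2 of 9 members, *Pdia6* and *Creld2*, and in 0.119% of all 32851 windows. The sequence TGACGTGG, a core to which ATF6 can bind, was found in 2 of 9 members, *Txndc5* and *Txndc11*, and in 0.676% of all windows. ATTGGNCCACG, known as ERSE-II, was in 0 of 9 members and 0.0365% of windows. TGATGNAA, a form of the element bound by ATF4 with a partner, was in 1 member, *Txndc5*, and in 3.97% of windows. The short parts of the ERSE were common: CCACG was in 8 of 9 members and 32.8% of windows, and CCAAT in 7 of 9 and 37.4%. Members were counted by gene, over all their windows. Of 27025 genes with windows, 0.137% had the ERSE, 0.714% TGACGTGG, 0.0444% ERSE-II and 4.51% TGATGNAA. By gene the shares were 35.5% for CCACG and 41.1% for CCAAT. The ERSE contains both of these, and TGACGTGG contains CCACG on its other strand. Each match to the ERSE or to TGACGTGG is shown with 35 bases on each side, along the strand of the gene, with the match in capitals.
*Pdia6* (chr12:17266456-17266544, plus strand): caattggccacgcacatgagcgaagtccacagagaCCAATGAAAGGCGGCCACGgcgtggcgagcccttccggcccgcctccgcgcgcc
*Creld2* (chr15:88819485-88819573, plus strand, element on the other strand): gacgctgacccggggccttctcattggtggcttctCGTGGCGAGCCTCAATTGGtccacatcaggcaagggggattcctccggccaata
*Txndc5* (chr13:38528010-38528087, minus strand): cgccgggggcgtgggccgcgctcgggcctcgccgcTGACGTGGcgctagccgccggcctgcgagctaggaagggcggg
*Txndc11* (chr16:11134592-11134669, minus strand): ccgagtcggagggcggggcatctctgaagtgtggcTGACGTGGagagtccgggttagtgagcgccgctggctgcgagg
The element lies from -98 to -80 relative to the start in *Pdia6* and from -126 to -108 in *Creld2*, and the core from -138 to -131 in *Txndc5* and from -102 to -95 in *Txndc11*. These stretches lie upstream of the annotated start, outside the transcript from that start. *Txndc5* has other annotated starts further upstream, *Txndc11* has another further downstream, and the windows of those do not hold the core. Log2 fold changes of the carriers were -0.017 for *Pdia6*, 0.15 for *Creld2*, 0.079 for *Txndc5* and 0.087 for *Txndc11*. *P4hb* (0.15), *Pdia3* (-0.13), *Pdia4* (0.12), *Pdia5* (0.16) and *Erp44* (0.032) had neither the ERSE nor the core in these windows. A match describes the letters only.

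Mean summed levels of blood cell genes were lower in *Atf6*-/- than in *Atf6*+/+ cochleae, with libraries of the genotypes overlapping in each list. In the marker lists given here and below, 0 genes had an adjusted limma p under 0.05, and calls are by the unadjusted rule, which 5.37% of all genes met as lower and 4.48% as higher. Of 8 erythroid genes, 7 were lower by the unadjusted rule, and their summed level was 16104, 4827, 14861, 13715 and 46393 FPKM in *Atf6*+/+ replicates 1 to 5 and 2870, 3931, 5141, 4727, 6432 and 9375 FPKM in *Atf6*-/- replicates 1 to 6. *Hba-a1* was the most abundant. Of 8 neutrophil genes, 4 were lower, and they summed to 495, 563, 3176, 1262 and 256 FPKM and to 92.5, 345, 181, 1199, 147 and 347 FPKM, led by *S100a9*. Of 8 B cell genes, 3 were lower, and they summed to 10.5, 9.16, 32.6, 33.8 and 16.0 FPKM and to 7.34, 9.79, 11.5, 10.8, 8.95 and 14.3 FPKM, led by *Cd79a*. Plasma cells, which are rich in isomerases, had 4 of 6 marker genes listed, of which 3 were tested and 2 were lower. They summed to 3.09, 2.76, 5.71, 4.74 and 3.92 FPKM and to 2.55, 2.27, 3.01, 2.47, 2.22 and 2.55 FPKM, led by *Sdc1*, with *Tnfrsf17* near 0. Of 10 osteoblast genes, 0 were called. All 10 had negative log2 fold changes, where 45.3% of all genes tested had positive ones, and their median was -0.333. They summed to 926 ± 712 FPKM in *Atf6*+/+ (SD, n = 5) and 579 ± 263 FPKM in *Atf6*-/- cochleae (SD, n = 6). *Bglap* was at 350.1 and 192 FPKM, or 207 FPKM in *Atf6*+/+ without replicate 5. Of 4 tested chondrocyte genes, 1 was higher (*Acan*), *Chad* was the most abundant and *Col10a1* and *Matn3* were near 0. The 6 chondrocyte genes listed summed to between 83.6 and 174 FPKM in *Atf6*+/+ and between 114 and 178 FPKM in *Atf6*-/- libraries. Of 6 skeletal muscle genes, 0 were called, and *Mylpf* was the most abundant.

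Genes that define the cochlea were present in both genotypes, led by *Coch* at 2421 FPKM (*Atf6*+/+) and 3034 FPKM (*Atf6*-/-). Of 14 such genes, 3 were higher in *Atf6*-/- cochleae (*Coch*, *Slc26a5* and *Ocm*) and 0 were lower. They summed to 4830, 5154, 3384, 3553 and 5005 FPKM in *Atf6*+/+ replicates 1 to 5 and to 5730, 4401, 5155, 5611, 6398 and 5293 FPKM in *Atf6*-/- replicates 1 to 6. The part of these cell types in the values of the isomerase genes was not tested, although marker scores were used as covariates. The bone marrow score, made from the erythroid, neutrophil and B cell genes, differed with genotype. It was 3.35 to 5.57 in *Atf6*+/+ and 1.96 to 3.81 in *Atf6*-/- libraries. A fit with this score therefore cannot fully separate it from genotype. In whole tissue, fewer cells of a type and less RNA per cell cannot be told apart.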

How the data were processed

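The FPKM values of each library were computed by the authors with RSEM after alignment to GRCm39 with HISAT2 2.0.4, from stranded mRNA libraries. They were deposited with 2 decimals and are not scaled to a common sum. Values were joined by NCBI gene identifier, 0.1 FPKM was added and log2 was taken. Genotype was the only term of a two-sided limma model (version 3.58.1, under R 4.3.3) of genes averaging at least 0.1 FPKM, with trended variance and Benjamini-Hochberg adjustment over 16169 genes. The limits of the unadjusted rule follow those of the study, where the authors used p-values from DESeq2. Here limma p-values were used, and the fold change limit of the authors was read as one on the log2 scale, which they do not state. The fold changes are on this log2(FPKM + 0.1) scale, which understates changes of low genes. Single genes were also compared by the exact two-sided permutation test over all 462 assignments of libraries to groups. The model was tested on simulated data.

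The members and lists were chosen with earlier results of these data known. Named genes were the members, *Atf6*, from each pathway list the genes called and the 3 most abundant, 3 genes most like *Pdia4* and 3 most like the member with the smallest p, and the most abundant gene of each marker list with those at 0. Other genes, such as those that form a complex with a member, were named after their values were seen. Marker lists covered the cochlea, plasma cells, B cells, neutrophils, erythroid cells, osteoblasts, chondrocytes and skeletal muscle. Alternatives were pseudocounts of 1 and 0.01, no filter, a mean of at least 1 FPKM, a replicate block, robust variance, scaling to TPM or by median of ratios, a bone marrow score and leaving out each library. Globin-free scaling, an osteoblast score and leaving out a pair of libraries were chosen after seeing the data. RefSeq promoter windows were searched with Python 3.11.15, numpy 2.4.6, pandas 2.3.3 and scipy 1.17.1, and figures were drawn with matplotlib 3.10.9. *Erp29* had no promoter entry.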

Additional observations from a re-analysis of the deposited data

Results flagged for a closer look

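In each genotype, the highest and lowest library of each member and of *Atf6* was compared with the others of its group, by its gap to the nearest value as a share of the whole range. Of 22 groups, 1 had a library that stood apart. *Pdia4* was at 33.9 FPKM in *Atf6*+/+ replicate 4, where the other *Atf6*+/+ libraries were between 39.0 and 40.8 FPKM. Chance alone marks about 1 in 20 groups in this way. Without this library the log2 fold change of *Pdia4* was 0.078, in place of 0.12.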

How the results depend on the processing

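No member had an adjusted limma p under 0.05 in any of the 23 alternatives, and the median log2 fold change of the members stayed positive, from 0.055 to 0.140. *P4hb* kept its sign in 23 of 23 and its unadjusted call in 22, from 0.12 to 0.21. The count of members higher by the unadjusted rule, 1 in the reported fit, was 5 with TPM, 4 with globin-free scaling, 3 with median-of-ratios scaling, 0 with the bone marrow score and 3 with the osteoblast score (*P4hb*, *Pdia5* and *Creld2*). Of all genes, 4.48% were higher in the reported fit, and 8.60%, 4.95%, 5.36%, 1.97% and 3.69% in these alternatives in the same order. With each library left out it ranged from 1 to 2, where 3.24% to 5.39% of all genes were higher, and the count of lower members from 0 to 1, where 3.82% to 6.14% were lower; *Atf6*+/+ replicate 4, *Atf6*-/- replicate 5 and *Atf6*-/- replicate 3 were the libraries that moved these counts. *Pdia6* turned positive with TPM (0.040), globin-free scaling (0.0012) and a replicate block (0.0075), and with each library left out it ranged from -0.066 to 0.030. *Erp44* ranged from -0.016 to 0.059 and *Erp29* from -0.0082 to 0.057 with each library left out. With TPM they were at 0.089 and 0.077, and *Erp29* was at 0.070 with the bone marrow score. Rescaling a library moves all its genes almost alike on the log2 scale. With TPM the median log2 fold change over all genes went from -0.013 to 0.042, and with globin-free scaling to 0.0042. The cause of the other shifts was not tested. Globin-free scaling and the osteoblast score were chosen after seeing the data.

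With a replicate block, 1 member was higher (*P4hb*, log2 fold change 0.16), against 2.60% of all genes, and 4 genes in all had an adjusted p under 0.05, in place of 11. The replicate numbers do not pair the libraries: correlations of deviations between libraries with the same number were 0.095, -0.122, -0.21, 0.119 and -0.0395. Of 10 libraries with a number in both genotypes, 1 correlated best with its own number in the other genotype.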

Other observations

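All genes whose promoter window holds the ERSE were looked at as well, a list made after the values of the members were seen. It holds 37 genes, of which 21 were tested, and besides *Pdia6* and *Creld2* it includes *Hspa5*, *Hsp90b1*, *Calr*, *Canx*, *Dnajc3*, *Syvn1* and *Derl3*, all known genes of ER folding or degradation. In the absence of ATF6, 9 of the 21 had positive and 12 negative log2 fold changes, with a median of -0.017, against -0.013 for all genes tested. These signs are for FPKM as deposited, and were not counted for this list under other scalings. After rescaling to TPM, *Pdia6* was at 0.040 and *Hsp90b1* at -0.14, and the median over all genes was 0.042. None of the 21 had an adjusted limma p under 0.05. By the unadjusted rule, met by 4.48% of all genes as higher and by 5.37% as lower, 1 was higher, *Syvn1*, at 27.9 and 30.5 FPKM in *Atf6*+/+ and *Atf6*-/- cochleae. Lower were 3 of the 21, *Hsp90b1*, *Derl3* (3.33 and 2.42 FPKM) and *Xlr3a* (2.84 and 1.23 FPKM). Among genes with TGACGTGG in the window, 128 were tested, 8 were higher and 7 lower, which is 6.25% and 5.47% beside the same shares of all genes, with a median of 0.008. In FPKM as deposited, genes with the element were thus found on both sides of 0.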
